A study of Homo sapiens with 15 samples.

Results

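The 8 genes described here encode enzymes that make, phosphorylate or dispose of the nicotinamide part of NAD: NAMPT, NMRK1, NAPRT, NMNAT1, NMNAT2, NMNAT3, NADK and NNMT. They were chosen by name as 8 of the 19143 gene rows of a read count table, in all 15 libraries, and all 8 had a row. The choice of names was made with results of these libraries in view, so their levels are a description, and the p-values below say where each gene lies among all genes tested rather than giving independent support. All libraries came from cells of MHCC-97H, an established line of human liver cancer. Of the first 9 libraries, 3 were from the cells in an animal model, 3 from a 3D model and 3 from a 2D model. The other 6, which the series describes as an additional round of sequencing, were 3 heat-treated and 3 untreated control libraries of the 3D model. No gene was altered in any group. The host species, the matrix of the 3D model, the temperature, the duration of heating and the time of collection are not given in the sources used here. The labels call the libraries of a group biological replicates and do not name the cultures or animals they came from, so the p-values measure the spread between these libraries, part of which may be technical.

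NAD carries electrons in metabolism and is also consumed by signalling enzymes, which release nicotinamide, so cells must remake it continuously. NAMPT returns nicotinamide to the pool by making nicotinamide mononucleotide and is usually rate limiting in that salvage route. NMRK1 makes the same intermediate from nicotinamide riboside, and NAPRT opens the separate route from nicotinic acid. The NMNAT enzymes complete the dinucleotide, in the nucleus for NMNAT1, at Golgi and cytosol for NMNAT2 and in mitochondria for NMNAT3. NADK turns NAD into NADP, and NNMT methylates nicotinamide and so takes it out of salvage. Liver is a main site of NAD synthesis, and NNMT is known as an abundant enzyme of normal liver and of fibroblasts.

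The start region of NAMPT is shown because NAMPT had the highest level and the widest spread of the 8 genes that averaged at least 10 CPM, and because the transcription factor SP1, named in the series title, is known to bind GC boxes. These are the 250 bases before the RefSeq start on the minus strand, chr7:106284984-106285233 in GRCh38.p14, with each GC box (GGGCGG on either strand) in capitals.
NAMPT promoter: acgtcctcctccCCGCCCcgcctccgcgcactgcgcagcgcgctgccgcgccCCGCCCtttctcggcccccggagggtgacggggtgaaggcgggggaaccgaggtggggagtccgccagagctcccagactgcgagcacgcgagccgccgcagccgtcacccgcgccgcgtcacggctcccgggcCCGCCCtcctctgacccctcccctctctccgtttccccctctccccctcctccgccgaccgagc
It held 3 GC boxes and 1 hypoxia response core (ACGTG or GCGTG on either strand), and no E-box (CACGTG), and none of these motifs overlapped another. Of 35116 RefSeq start regions of the same length, 42.6% held at least 1 GC box, 43.2% a hypoxia response core and 6.34% an E-box. A match says only that these letters are present.

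Total counts ran from 12605539 to 18634295 per library, so that 1 read was worth 0.0484 to 0.0955 CPM (reads scaled to a common library total, with TMM factors over the 15 libraries). 3D replicates 1 and 2 and heat replicate 1 stood apart by composition. Over 10520 genes, the rank correlation between transcript GC content and a library's difference from 2D was 0.620 to 0.833 in those 3, and -0.249 to 0.226 elsewhere. Of the 8 genes, NAMPT has the lowest transcript GC content, at 36.3%, and NAPRT the highest, at 68.0%. The part of this trend in their levels was not tested. The albumin and alpha-fetoprotein genes, markers of liver cells, were low in culture: ALB was at 1.66 to 4.42 CPM in 3D and 2.11 to 2.56 CPM in 2D libraries, and AFP at 0.675 to 2.48 CPM in 3D and 1.90 to 2.19 CPM in 2D libraries. In these bulk libraries, fewer cells of a kind and less RNA per cell cannot be told apart.

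NAMPT lies on chromosome 7, NMRK1 on chromosome 9, NAPRT on chromosome 8, NMNAT1, NMNAT2 and NADK on chromosome 1, NMNAT3 on chromosome 3 and NNMT on chromosome 11. NAMPT carried the largest part of the group's transcripts in every library but 3D replicate 2. Divided by transcript length, its level averaged 62.1 ± 7.17 CPM per kb in animal libraries, 75.7 ± 37.7 in 3D and 253 ± 5.13 in 2D (SD, n = 3 each). It averaged 114 ± 61.8 CPM per kb in heated and 196 ± 6.80 in control 3D libraries. Of the summed per-kb level of the 8 genes, NAMPT made up 57.2 to 67.4% in animal libraries, 31.5 to 75.9% in 3D and 87.3 to 87.6% in 2D. Its share was 49.8 to 82.0% in heated and 84.3 to 85.4% in control 3D libraries. NADK was next in the 2D libraries, at 8.10 to 8.48% of the sum, and NAPRT after it, at 2.71 to 3.14%. The share of NAPRT reached 38.5% in 3D replicate 2, the library where NAMPT was lowest.

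**Figure D1:**
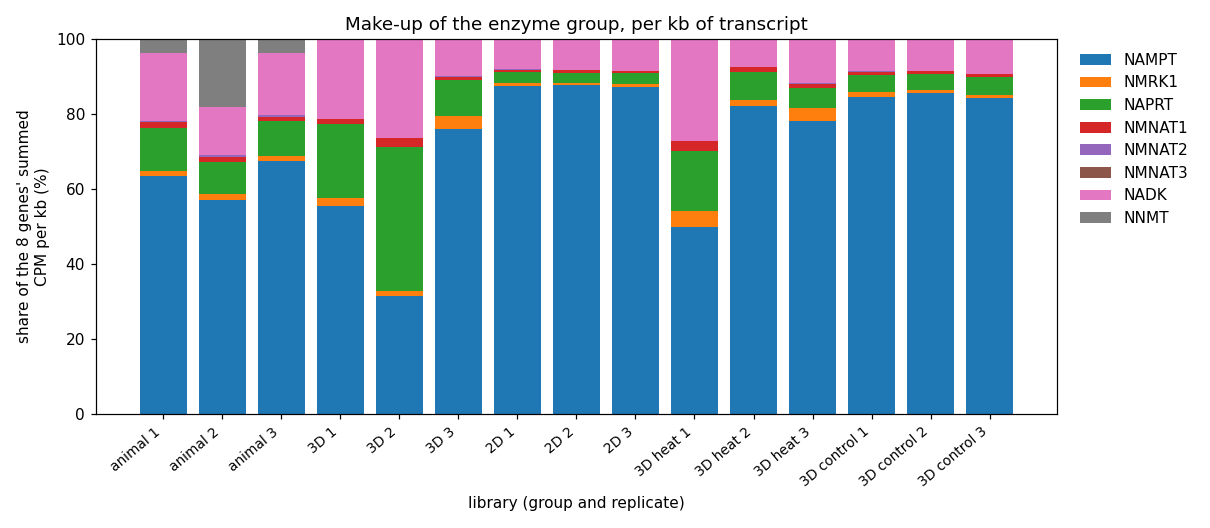
Stacked bars give the share of each gene in the summed CPM per kb of the 8 genes (vertical axis, %) for each of the 15 libraries (horizontal axis). NAMPT fills 87.3 to 87.6% of the 2D bars and 31.5 to 75.9% of the 3D bars, and NNMT is visible in the animal bars.

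NAMPT was lower in the animal and 3D libraries than in 2D. Its level was 248, 312 and 294 CPM in animal libraries 1 to 3 and 316, 192 and 533 CPM in 3D libraries 1 to 3, against 1185, 1155 and 1139 CPM in 2D libraries 1 to 3. No animal or 3D library came near the 2D range, and the 3D values differed among themselves more than those of either other group. In the second round it was 222, 785 and 561 CPM in heated libraries 1 to 3, against 897, 928 and 866 CPM in control libraries 1 to 3. All 3 heated libraries lay below all 3 controls, with heat replicate 1 far below the other heated ones. Ordered by mean, NAMPT ran from animal over 3D, heated 3D and control 3D up to 2D. The ranges of the animal, 3D and heated groups overlapped, whereas those of the control 3D and 2D groups were apart from each other and from the rest. The 3D and control 3D groups carry similar labels but were sequenced in different rounds, so condition and round cannot be told apart between them. GENCODE lists 3 NAMPT pseudogenes and an antisense gene that shares 786 exon bases with it. The library protocol marks no strand, so reads of these cannot be separated from NAMPT.

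**Figure D2:**
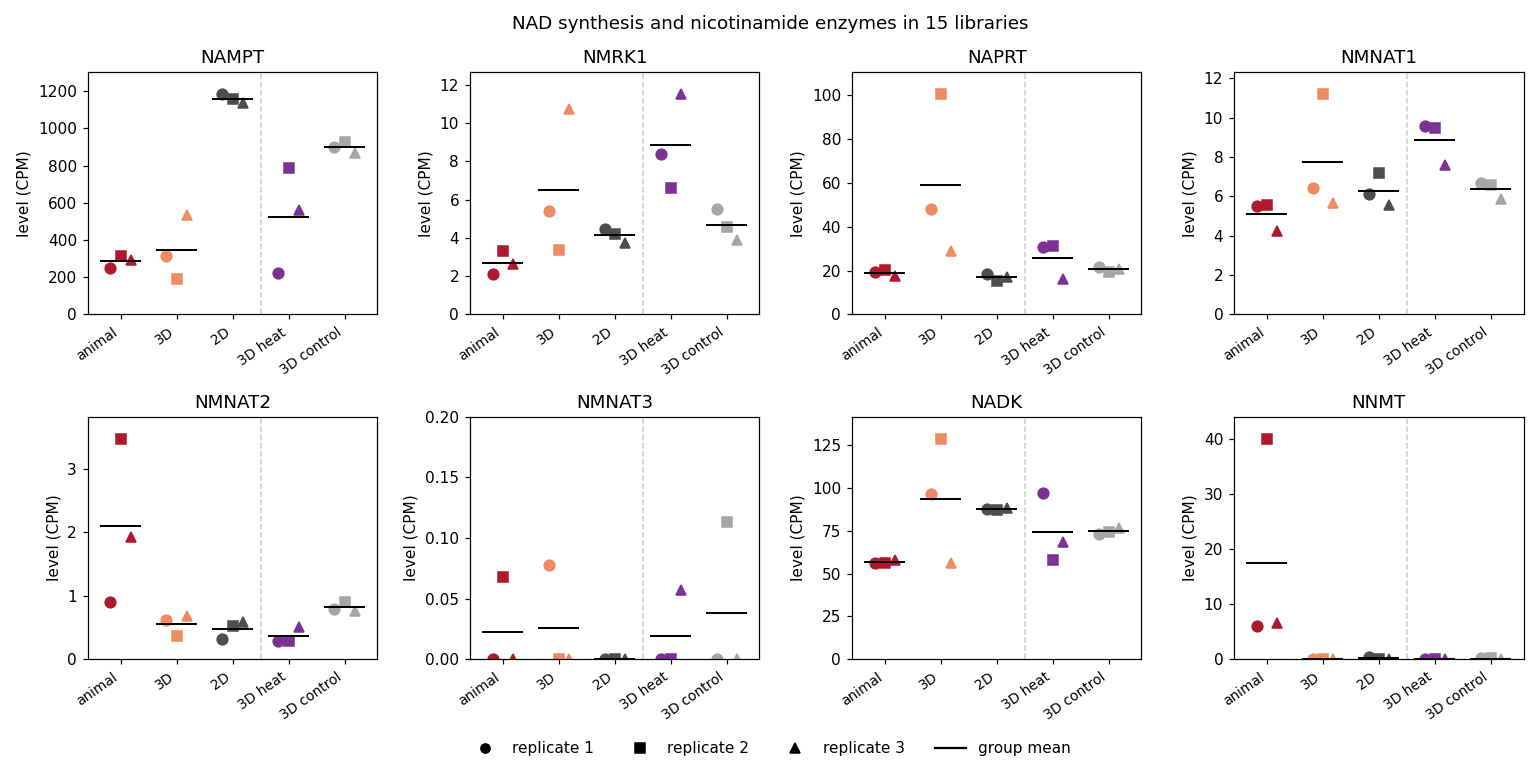
Each panel plots 1 gene's level in CPM (vertical axis, from 0) in the 15 libraries by group (horizontal axis), with symbols for replicates and a line for the group mean. The dashed line parts the first round from the second. NAMPT sits at 192 to 533 CPM in the 3D and animal libraries against 1139 to 1185 CPM in 2D, and NNMT rises above 1 CPM in the animal libraries only.

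The other enzymes that open a route to NAD were far less abundant. NMRK1 measured 2.10, 3.33 and 2.64 CPM in animal libraries and 5.43, 3.35 and 10.7 CPM in 3D, against 4.48, 4.22 and 3.74 CPM in 2D libraries 1 to 3. The animal range lay below the 2D range, and the 3D range enclosed it. With heat, NMRK1 was at 8.40, 6.63 and 11.5 CPM, against 5.53, 4.59 and 3.88 CPM in control libraries 1 to 3, and the groups did not overlap. NAPRT measured 19.4, 20.4 and 17.5 CPM in animal libraries and 48.0, 101 and 29.03 CPM in 3D, against 18.3, 15.3 and 17.0 CPM in 2D libraries 1 to 3. Every 3D value exceeded the animal and 2D values, and animal and 2D libraries overlapped. With heat, NAPRT was at 30.7, 31.2 and 16.0 CPM, against 21.4, 19.5 and 20.9 CPM in control libraries 1 to 3, which lie inside the heated range. Per kb, NAMPT exceeded NAPRT by factors of 5.49, 6.55 and 7.21 in animal libraries, 2.82, 0.819 and 7.88 in 3D and 27.8, 32.4 and 28.7 in 2D libraries 1 to 3. In 3D replicate 2 NAPRT was thus above NAMPT per kb. In the second round the factor was 3.10, 10.8 and 15.1 in heated libraries, against 17.9, 20.4 and 17.8 in control libraries 1 to 3. All heated values lay below all control values. Antisense genes share 855 and 292 exon bases with NAPRT, so part of its reads is uncertain too.

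Of the enzymes that complete the dinucleotide, NMNAT1, the nuclear form, measured 4.26 to 5.58 CPM in animal libraries, 5.65 to 11.2 CPM in 3D and 5.55 to 7.18 CPM in 2D. It measured 7.59 to 9.55 CPM in heated and 5.85 to 6.67 CPM in control 3D libraries. GENCODE names 5 pseudogene copies of NMNAT1 and a further gene that shares 436 exon bases with it, whose reads may be counted with it. NMNAT2, best known as an axon maintenance factor, had 15, 51 and 32 reads in animal libraries 1 to 3 and 8, 5 and 11 reads in 3D, against 6, 10 and 11 reads in 2D libraries 1 to 3. All animal libraries were above all 3D and 2D libraries in CPM. It had 3, 6 and 9 reads in heated libraries, against 14, 16 and 13 reads in control libraries 1 to 3. In CPM the control range, 0.753 to 0.907, reached the lowest animal value, 0.902 in animal replicate 1. NMNAT3, the mitochondrial form, had 0 to 2 reads per library in all 15 libraries and was not tested; its count of 0 in the 2D libraries allows a level of up to 0.158 to 0.160 CPM (3 counts per library). Per kb, the order of group means was NMNAT1, NMNAT2, NMNAT3 in each of the 5 groups, from 1.36 ± 0.197, 0.370 ± 0.228 and 0.00330 ± 0.00571 CPM per kb in animal libraries to 1.66 ± 0.218, 0.0844 ± 0.0248 and 0 CPM per kb in 2D libraries (SD, n = 3).

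NADK, the cytosolic NAD kinase, measured 56.3, 56.3 and 58.0 CPM in animal libraries and 96.6, 129 and 55.8 CPM in 3D, against 87.5, 86.8 and 88.2 CPM in 2D libraries 1 to 3. The animal libraries all lay below the 2D libraries, and 3D replicate 3 sat near the animal values while 3D replicates 1 and 2 sat above 2D. With heat it measured 96.7, 57.7 and 68.2 CPM, against 73.0, 74.4 and 76.6 CPM in control libraries 1 to 3, which lie inside the heated range.

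NNMT, which methylates nicotinamide, was close to undetected in culture and present in the animal libraries. It had 102, 590 and 109 reads in animal libraries 1 to 3 and 1, 0 and 0 reads in 3D, against 7, 2 and 1 reads in 2D libraries 1 to 3. That is 6.13, 40.1 and 6.54 CPM in animal libraries and at most 0.0776 CPM in 3D, against 0.0534 to 0.373 CPM in 2D. It had 0, 1 and 0 reads in heated libraries, against 3, 3 and 1 reads in control 3D libraries 1 to 3. Every animal library was above every cultured library, and animal replicate 2 stood well above the other animal libraries.

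In the comparison of 3D with 2D, which asks what the 3D environment changes, NAMPT was lower and NAPRT higher. NAMPT fell 3.40-fold, to 347 ± 173 CPM in 3D against 1159.6 ± 23.5 CPM in 2D (SD, n = 3 each; log2 fold change -1.76, SE 0.35, adjusted p = 0.00695). NAPRT rose 3.39-fold, to 59.2 ± 37.0 CPM in 3D against 16.9 ± 1.49 CPM in 2D (log2 fold change 1.76, SE 0.39, adjusted p = 0.0109). Adjusted p-values are those of edgeR's quasi-likelihood test over all genes, called below 0.05. Of the 7 genes tested, 1 was higher and 1 lower. In CPM, 2 of the 8 had 3D and 2D groups that do not overlap, as did 50.1% of all genes tested. By the same test 32.9% of all 12925 genes were called (20% higher and 12.9% lower), so the share among the enzymes, 2 of 7, is near that of all genes. The median log2 fold change was 0.18 over the 7 and 0.03 over all genes.

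The size of both calls rested on 3D replicates 1 and 2. Without these 2 libraries the fitted log2 value of NAMPT was -1.12 (adjusted p = 0.000581). NAPRT then had 0.78 (adjusted p = 0.00342). When an offset took out the trend of each library over transcript GC content and length, both calls ended, at -0.28 for NAMPT (adjusted p = 0.444) and 0.50 for NAPRT (adjusted p = 0.0620). Without 3D replicate 2 alone NAPRT had 1.16, and without 2D replicate 2 its adjusted p was 0.0538. The direction was kept for NAMPT and for NAPRT in each of the 16 alternatives. Without 3D replicates 1 and 2, NMRK1 was called higher (log2 fold change 1.37, adjusted p = 0.00415, against 0.63 and 0.267 with them) and NADK lower (-0.65, adjusted p = 0.000802). The fit without those 2 libraries calls 46.4% of all genes and assumes that the lone 3D library varies like the other groups. The log2 fold change of NADK was 0.05 with all libraries (adjusted p = 0.889), so its sign turned. With the offset, NMRK1 (1.06, adjusted p = 0.0135) and NADK (-0.43, adjusted p = 0.0258) were called in the same directions as without the 2 libraries. Without 3D replicate 3, NMRK1 had a log2 fold change of 0.02. NMNAT1 (0.26, adjusted p = 0.516), NMNAT2 (0.18, adjusted p = 0.821) and NNMT (1 read in 3D against 10 in 2D, adjusted p = 0.288) were not called.

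**Figure D3:**
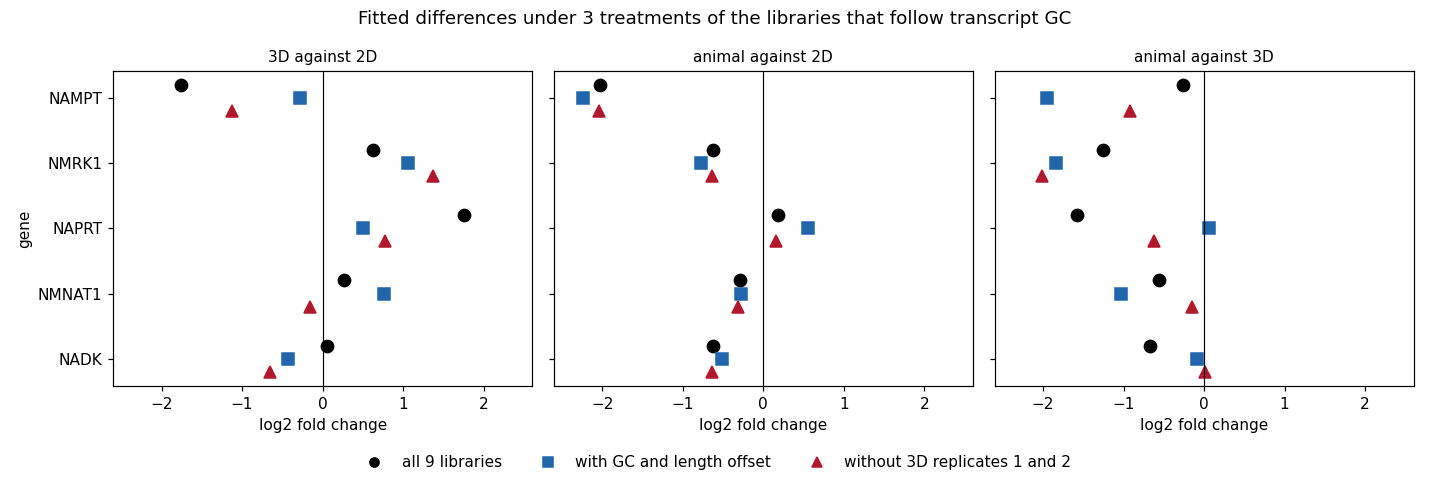
Log2 fold changes (horizontal axis) of 5 of the genes in 3 comparisons, fitted to all 9 libraries of the first round, with the GC and length offset, and without 3D replicates 1 and 2. NAMPT lies at -2.23 to -2.03 in animal against 2D under all 3, and at -1.76 to -0.28 in 3D against 2D.

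Between animal and 2D libraries, NAMPT was lower, and NNMT and NMNAT2 were higher. NAMPT fell 4.07-fold, to 285 ± 32.9 CPM in animal libraries against 1159.6 ± 23.5 CPM in 2D (SD, n = 3 each; log2 fold change -2.03, SE 0.35, adjusted p = 0.00677). This call was kept in all 16 alternatives, with log2 fold changes of -2.23 to -1.94. NNMT rose 95.5-fold, to 17.6 ± 19.5 CPM against 0.177 ± 0.171 CPM (adjusted p = 0.00487). The ratio of its pooled reads, 801 against 10, was 94.2, with an exact Clopper-Pearson 95% interval of 51.0 to 197 that covers counting error only. Its log2 fold change was 6.58 with all libraries, 5.10 without animal replicate 2 (adjusted p = 0.00517) and 7.65 without 2D replicate 1 (adjusted p = 0.0211). NMNAT2 rose 4.32-fold, to 2.10 ± 1.29 CPM against 0.478 ± 0.141 CPM (adjusted p = 0.0354). The NMNAT2 call ended on leaving out any 2D library or animal replicate 2 or 3 (adjusted p = 0.0814 to 0.153). Of the 7 genes tested, 2 were higher and 1 lower, where 12% of all 12925 genes were called (7.78% higher, 4.25% lower). The 2 higher genes, NNMT and NMNAT2, had few reads in 2D and 3D and passed the read filter only through the animal libraries. Their place in this count is therefore not independent of their high animal levels. The median log2 fold change was -0.29 over the 7 and 0.03 over all genes.

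NADK was at 56.8 ± 1.0 CPM in animal libraries against 87.5 ± 0.683 CPM in 2D (log2 fold change -0.62, adjusted p = 0.166), and NMRK1 at 2.69 ± 0.616 against 4.14 ± 0.375 CPM (-0.62, adjusted p = 0.418). Neither gene's groups overlapped, and neither passed. In CPM, 5 of the 8 genes had animal and 2D groups that do not overlap, as did 66.6% of all genes tested. The spread in this fit is shared with the 3D libraries, and without 3D replicates 1 and 2 both NADK (adjusted p = 0.000123) and NMRK1 (adjusted p = 0.0331) were called lower, at log2 fold changes of -0.64 each, in a fit that calls 55.6% of all genes. With the animal and 2D libraries fitted alone both were called as well (adjusted p = 0.000125 for NADK and 0.0431 for NMRK1), and NADK with the offset (adjusted p = 0.0131). NAPRT (0.18, adjusted p = 0.828) and NMNAT1 (-0.29, adjusted p = 0.610) were not called. With the offset NAPRT was called higher, at 0.56 (adjusted p = 0.0484).

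Removal of host reads is not stated for the animal libraries, so levels of markers of other cell types are given beside NNMT and NMNAT2. The summed level of 10 fibroblast and pericyte markers was 246, 455 and 162 CPM in animal libraries 1 to 3, against 64.5 to 69.0 CPM in 2D libraries and 16.3 to 112 CPM in 3D libraries. The highest NNMT and NMNAT2 values and the highest sum were in the same library, animal replicate 2. The lowest sum was in animal replicate 3, where NMNAT2 was higher than in animal replicate 1, and NNMT slightly so (6.54 against 6.13 CPM). Of 5 fibroblast markers tested in animal against 2D, 4 were higher, and the collagen gene COL1A1 was at 120, 244 and 59.7 CPM in animal libraries 1 to 3, against 3.90 to 4.21 CPM in 2D. The sum of 12 macrophage and leukocyte markers was 44.1 to 55.1 CPM in animal libraries, against 6.50 to 7.69 CPM in 2D, with 5 of 7 tested markers higher. Their defining members were low, PTPRC at 0.272 to 1.14 CPM and CD14 at 0 to 0.240 CPM in animal libraries. Endothelial markers summed to 66.1, 43.9 and 56.2 CPM in animal libraries 1 to 3, against 47.0 to 59.3 CPM in 2D. Their lowest animal sum was in animal replicate 2, where NNMT was highest. In culture this sum was mostly 1 gene, ESAM, at 52.1 ± 6.14 CPM in 2D and 102 ± 30.4 CPM in 3D. It may therefore not follow endothelial cells. Of the endothelial markers, 2 of 3 tested were higher, and CDH5 was at 0.240 to 0.721 CPM in animal libraries. Of 7 neutrophil markers, 5 had 0 reads in the animal libraries. Of 9 liver cell markers tested in animal against 2D, 4 were higher and 0 lower (4 and 2 without 3D replicates 1 and 2). The sum of the 10 listed was 3263 to 3410 CPM in animal libraries, against 3710 to 3854 CPM in 2D. In 2D this sum was mostly 2 keratin genes, KRT8 at 3007 ± 50.5 CPM and KRT18 at 695 ± 29.3 CPM. It says little of the other listed markers. ALB, among the higher ones, was at 90.8 to 283 CPM in animal libraries and highest in animal replicate 3, and AFP at 5.03 to 16.2 CPM. Among the tested markers, LYZ, LAPTM5 and TEK passed the read filter only through the animal libraries. Their place in the marker counts is not independent of their animal levels. The part of the marked cell types in the NNMT and NMNAT2 results was not tested.

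**Figure D4:**
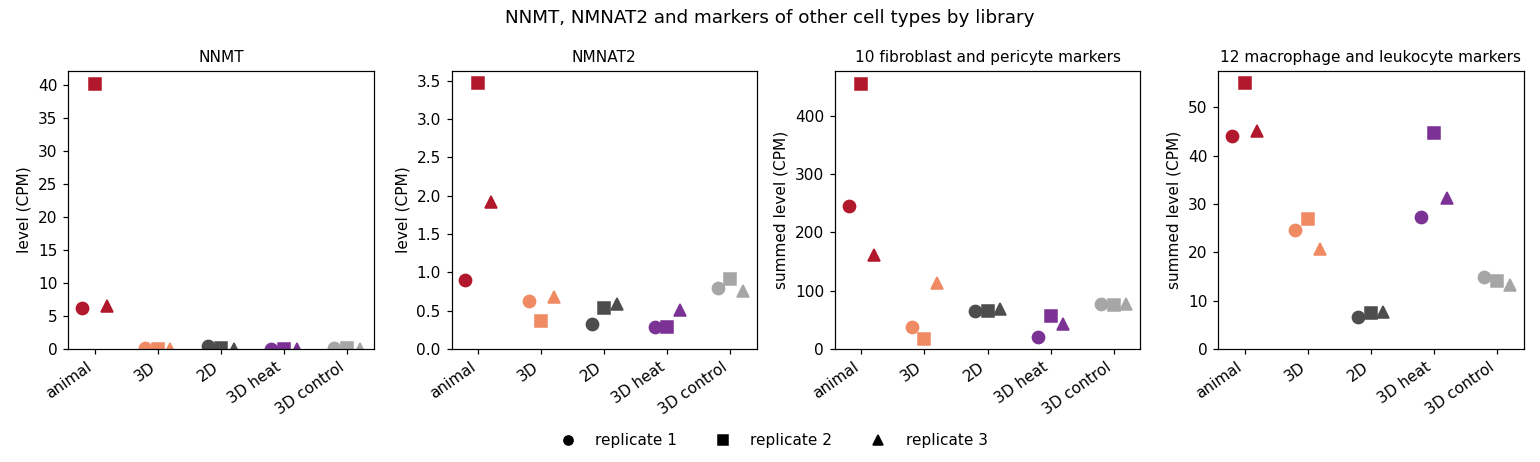
Levels of NNMT and NMNAT2 and summed levels of 2 marker lists in CPM (vertical axes, from 0) by group (horizontal axes), 1 symbol per replicate. The animal libraries hold 6.13 to 40.1 CPM of NNMT and 162 to 455 CPM of fibroblast markers, and animal replicate 2 is the highest in all 4 panels. Other lists are not drawn. Among animal libraries, the endothelial and liver cell sums are highest in animal replicate 1, at 66.1 and 3410 CPM. In 2D the endothelial sum is mostly ESAM, and the liver cell sum mostly the keratin genes KRT8 and KRT18. The neutrophil sum is 1 read in each animal library, worth 0.0600 to 0.0680 CPM.

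Set against 3D, the animal libraries had more NNMT and NMNAT2 and less NAPRT and NMRK1. NNMT had 801 reads in animal libraries against 1 in 3D, a pooled ratio of 717 with an exact 95% interval of 128 to 28342 (adjusted p = 0.00163). The call was kept in all 16 alternatives (adjusted p at most 0.0201), also without animal replicate 2, where the fitted log2 value was 7.71 against 9.18 with it; with 1 read in 3D these fitted values are no bound. NMNAT2 rose 3.81-fold, to 2.10 ± 1.29 CPM against 0.553 ± 0.166 CPM (SD, n = 3 each; adjusted p = 0.0217). The NMNAT2 call ended without animal replicate 2, 3D replicate 1, 3D replicate 2 or the last 2 together, and with the 2 groups fitted alone (adjusted p = 0.0620 to 0.135). NAPRT fell 2.99-fold, to 19.1 ± 1.49 CPM against 59.2 ± 37.0 CPM (log2 fold change -1.58, SE 0.39, adjusted p = 0.0127). It was -0.99 without 3D replicate 2 (adjusted p = 0.0137), -0.62 when 3D replicates 1 and 2 were both left out (adjusted p = 0.00965) and 0.06 with the offset (adjusted p = 0.801), and its adjusted p was 0.05001 without animal replicate 3. NMRK1 fell 2.38-fold, to 2.69 ± 0.616 CPM against 6.50 ± 3.81 CPM (adjusted p = 0.0458). Of 16 alternatives, 7 kept the NMRK1 call; the other adjusted p-values reached 0.139, among them those on leaving out any animal library, 3D replicate 1 or 3D replicate 3. Without 3D replicates 1 and 2 the log2 fold change of NMRK1 was -2.01 (adjusted p = 0.000781), against -1.25 with them, and -0.65 without 3D replicate 3.

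Between animal and 3D libraries 4 of the 7 tested enzymes were called, 2 in each direction, where 41.5% of all 12925 genes were (18.6% higher, 22.9% lower). The 2 higher genes, NNMT and NMNAT2, again passed the read filter only through the animal libraries. In CPM, 5 of the 8 had groups that do not overlap, as did 50.2% of all genes tested. The median log2 fold change was -0.55 over the 7 and 0.10 over all genes. NAMPT measured 285 ± 32.9 CPM in animal libraries against 347 ± 173 CPM in 3D and was not called (log2 fold change -0.26, adjusted p = 0.532). With the offset it was called lower (-1.95, adjusted p = 0.000745), as it was when 3D replicates 1 and 2 were left out (-0.92, adjusted p = 0.000837). NADK was not called either (-0.67, adjusted p = 0.0650), and leaving out 3D replicates 1 and 2 gave 0.01 (adjusted p = 0.914). NADK was called lower by DESeq2 (-0.80, adjusted p = 0.0321) and without 3D replicate 3 (-0.93, adjusted p = 0.000163). NMNAT1 had -0.55 (adjusted p = 0.161), and was called lower with the offset (-1.04, adjusted p = 0.0381) and without 3D replicate 3 (-0.72, adjusted p = 0.0309). The 3 comparisons of the first round share libraries, so their values are set side by side and not counted as separate evidence.

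**Figure D5:**
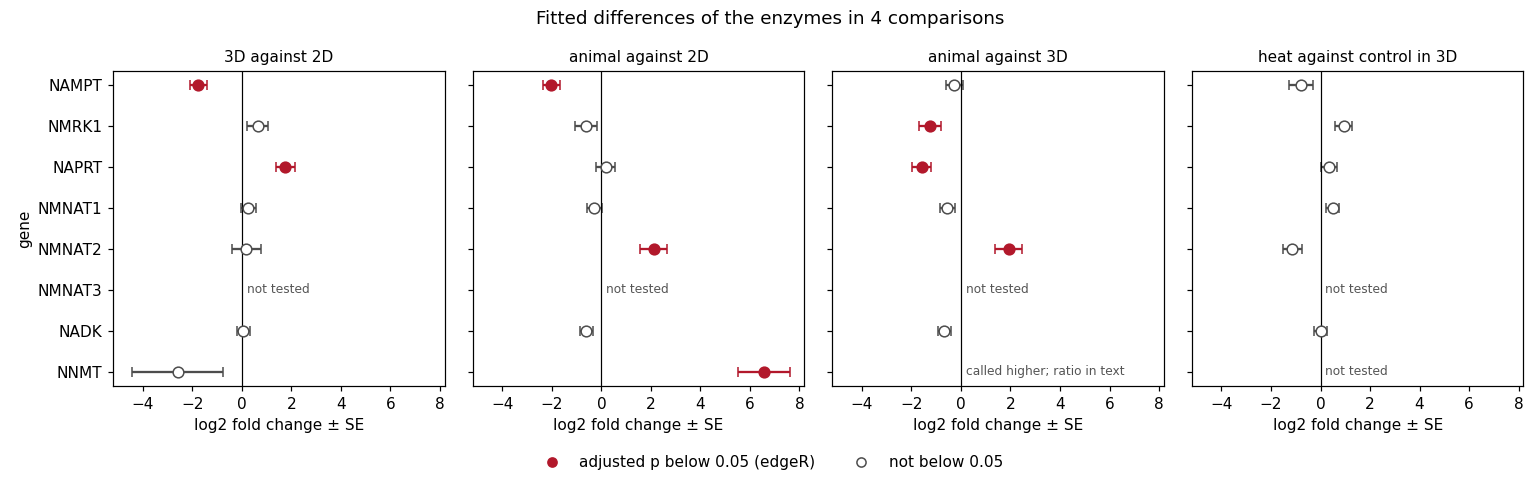
Log2 fold change ± SE (horizontal axes) of each gene in the 4 comparisons from edgeR, with filled symbols for adjusted p below 0.05. Filled symbols are NAMPT and NAPRT in 3D against 2D, NAMPT, NMNAT2 and NNMT in animal against 2D, and NMRK1, NAPRT and NMNAT2 in animal against 3D, where NNMT is called but not drawn because 3D holds 1 read; no symbol is filled for heat.

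In the comparison of heated with control 3D libraries, which asks what heat stress changes, no enzyme passed. Of the 6 genes tested, 0 were called by edgeR, and 2 had an unadjusted p below 0.05 in it. By edgeR 0.0238% of all 12627 genes were called (0.00792% higher, 0.0158% lower). DESeq2 also called 0 of the enzymes, but it called 1569 genes in all. The median log2 fold change was 0.17 over the 6 and 0.10 over all genes. NAMPT averaged 523 ± 283 CPM in heated libraries against 897 ± 31.1 CPM in controls (SD, n = 3 each; log2 fold change -0.77, SE 0.48, adjusted p = 0.383). NMRK1 averaged 8.85 ± 2.48 CPM in heated libraries against 4.67 ± 0.826 CPM in controls (0.93, SE 0.33, adjusted p = 0.187), higher in 3 of 3 libraries. NMNAT2 averaged 0.363 ± 0.130 CPM against 0.819 ± 0.0788 CPM (-1.13, SE 0.40, adjusted p = 0.184), and NMNAT1 8.87 ± 1.11 CPM against 6.37 ± 0.446 CPM (0.49, adjusted p = 0.322). In CPM, 5 of the 8 genes, among them the untested NNMT, had heated and control groups that do not overlap. The NNMT groups parted by library scaling alone. There, 1 read in heat replicate 2 gave 0.0484 CPM, and 1 read in control replicate 3 gave 0.0580 CPM. Of all 12627 genes tested, 36.6% did.

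The count of 0 held without heat replicate 1, where 28.8% of all genes were called. The smallest adjusted p was then that of NMRK1, 0.0579 at a log2 fold change of 0.96, and NAMPT had -0.41 (adjusted p = 0.105). NAPRT (0.34, adjusted p = 0.557) and NADK (0.00, adjusted p = 1.0) were not called either. NNMT, with 1 read in heated libraries against 7 in controls, and NMNAT3, with 1 against 2, were too low to be tested. The NNMT read ratio was 0.154, with an exact 95% interval of 0.00342 to 1.20.

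The genes whose profiles over the 15 libraries came closest to those of the enzymes were found by the root mean square difference between mean-centred log2(CPM + 1) profiles, among 9464 genes of at least 10 CPM. For NAMPT they were GLCCI1 (0.312), HERC3 (0.320) and GREB1L (0.329). For NAPRT they were SBNO2 (0.214), FCSK (0.227) and RCOR2 (0.228), and for NADK they were AP3D1 (0.0705), HNRNPUL1 (0.101) and PTBP1 (0.105). GLCCI1, like NAMPT, was lower in animal and 3D libraries than in 2D, at 16.2 to 21.6 CPM in animal and 7.20 to 30.6 CPM in 3D, against 50.4 to 57.1 CPM in 2D. SBNO2 had its highest value in 3D replicate 2, at 387 CPM, as NAPRT did. These likenesses are a description over libraries that share their groups and their composition trends.

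Other genes of NAD metabolism were taken from textbook lists that were drawn up with earlier results known and not picked for how they moved. Of 68 listed genes 67 had a row. In 3D against 2D, 59 were tested, and 10 were higher and 13 lower (39.0%, against 32.9% of all genes). In animal against 2D, 7 were higher and 1 lower (13.6%, against 12%), and in animal against 3D, 21 were higher and 10 lower (52.5%, against 41.5%). HAAO and PARP15, among the 7 higher, passed the read filter only through the animal libraries, as did MAT1A among the genes tested. HAAO, for example, had 23, 12 and 16 reads there, against 0 to 2 in 2D and 0 in 3D. Their place in the animal counts, here and per list below, is not independent of their high animal levels. With heat, 0 of 55 were called by edgeR. Without heat replicate 1, 28.8% of all genes were called. The calls, higher and lower, were then 0 and 1 of 6 for the tryptophan route and 0 and 4 of 11 for salvage and uptake genes. They were 2 and 1 of 6 for sirtuins and 4 and 2 of 16 for PARP enzymes. List counts below without 3D replicates 1 and 2 come from the fit with a lone 3D library, which called larger shares of all genes.

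The route from tryptophan and its exit into the shared last step had 3 genes higher and 1 lower of 8 tested in 3D against 2D (4 and 1 without 3D replicates 1 and 2). NADSYN1, the NAD synthetase that also serves NAPRT's route, rose 2.61-fold, to 119, 135 and 149 CPM in 3D libraries 1 to 3 against 46.7, 49.0 and 55.0 CPM in 2D (adjusted p = 0.00155, and 0.0569 with the offset). All its 3D libraries lay well above 2D, with 3D replicate 3 the highest. AFMID, kynurenine formamidase, rose to 26.4 ± 2.90 CPM against 14.7 ± 1.15 CPM (adjusted p = 0.0133, not kept with the offset or without any 1 of the 2D libraries, at up to 0.299), and KYNU, kynureninase, fell to 50.2 ± 6.49 against 88.9 ± 1.67 CPM (adjusted p = 0.00914), with the opposite sign under the offset (1.25, adjusted p = 0.132). In animal against 3D, 3 were higher and 2 lower of 8. TDO2, the liver's tryptophan dioxygenase, rose to 21.2 ± 5.22 CPM in animal libraries against 3.20 ± 1.97 CPM in 3D (adjusted p = 0.00234; log2 fold change 2.74, 1.94 without 3D replicates 1 and 2, 3.41 without 3D replicate 3 and 1.72 with the offset), and KYNU to 106 ± 16.3 against 50.2 ± 6.49 CPM (adjusted p = 0.00257). KYNU again had the opposite sign with the offset (-1.28, adjusted p = 0.108). NADSYN1 fell to 61.9 ± 3.41 against 134 ± 15.3 CPM (adjusted p = 0.00237), and QPRT, which makes nicotinic acid mononucleotide, to 108 ± 2.04 against 260 ± 131 CPM (adjusted p = 0.0120); with the offset neither passed (0.303 for NADSYN1 and 0.0862 for QPRT). Set against 2D, the animal libraries had 2 higher and 0 lower (6 and 0 without the 2 libraries). TDO2 was at 21.2 ± 5.22 CPM against 6.48 ± 0.839 CPM in 2D (adjusted p = 0.0303), a call lost without any 1 of the 2D libraries or animal replicate 1 or 3 (at most 0.134). IDO1 and IDO2 had 0 reads in every library.

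Among other salvage, uptake and phosphorylation genes, 0 were higher and 3 lower of 11 tested in 3D against 2D (1 and 5 without 3D replicates 1 and 2). NNT, the mitochondrial transhydrogenase that makes NADPH from NADH, fell to 31.9 ± 5.90 CPM in 3D against 61.6 ± 4.78 CPM in 2D (adjusted p = 0.00796), and NOCT, a phosphatase of NADP cofactors, to 5.50 ± 0.532 against 10.8 ± 0.242 CPM (adjusted p = 0.00839). With the offset NNT had the opposite sign (0.44, adjusted p = 0.329). Set against 3D, the animal libraries had 4 higher and 0 lower. NNT was at 57.6 ± 2.81 CPM against 31.9 ± 5.90 CPM in 3D (adjusted p = 0.00906), and SLC12A8, a transporter reported in mouse to carry nicotinamide mononucleotide, at 18.2 ± 2.605 against 8.54 ± 2.76 CPM (adjusted p = 0.00990). Both calls ended with the 2 groups fitted alone (0.0617 and 0.0687), and NNT had the opposite sign with the offset (-0.59, adjusted p = 0.179). Between animal and 2D libraries, 0 of 11 were called in the fit to all libraries, and 3 higher and 2 lower without the 2 libraries.

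Of the enzymes that consume NAD, the deacylases of the sirtuin family had 2 higher and 0 lower of 6 tested in 3D against 2D (2 and 0 without 3D replicates 1 and 2). SIRT2, mainly cytosolic, rose to 186 ± 63.2 CPM in 3D against 70.5 ± 3.58 CPM in 2D (adjusted p = 0.00562; log2 fold change 1.35, 0.71 without 3D replicates 1 and 2 and 0.46 with the offset), and SIRT3, mitochondrial, to 37.7 ± 11.6 against 16.3 ± 0.664 CPM (adjusted p = 0.0177). The SIRT3 call ended without 3D replicates 1 and 2 (0.112), without 3D replicate 1, without any 1 of the 2D libraries and with the offset (0.0994). In animal against 3D, 0 were higher and 4 lower, with SIRT2 at 52.3 ± 4.36 CPM in animal libraries against 186 ± 63.2 CPM in 3D (adjusted p = 0.00142; log2 fold change -1.79, -1.16 without 3D replicates 1 and 2 and -0.81 with the offset). SIRT7, nucleolar, was at 58.1 ± 7.06 against 155 ± 51.1 CPM (adjusted p = 0.00382, and 0.410 with the offset; log2 fold change -1.37, and -0.75 without the 2 libraries). Between animal and 2D libraries, 0 of 6 were called, and 1 higher and 2 lower without the 2 libraries.

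PARP enzymes, which transfer ADP-ribose from NAD, had 2 higher and 4 lower of 17 tested in 3D against 2D (6 and 5 without 3D replicates 1 and 2). PARP10 rose to 121 ± 35.5 CPM in 3D against 36.8 ± 2.63 CPM in 2D (adjusted p = 0.00207; log2 fold change 1.68, and 0.83 with the offset), and PARP3 to 21.7 ± 2.38 against 9.74 ± 0.433 CPM (adjusted p = 0.00946). PARP1, the main DNA damage responder, was at 110 ± 27.3 against 181 ± 4.59 CPM (adjusted p = 0.0224), and PARP9 at 10.7 ± 2.00 against 18.5 ± 0.387 CPM (adjusted p = 0.0179). The calls of PARP9 and PARP1 ended without any 1 of the 2D libraries or 3D replicate 1 (0.0629 to 0.0802) or with the 2 groups fitted alone (0.0610 and 0.0765), that of PARP1 also with median-ratio scaling (0.0556), that of PARP3 without 2D replicate 1 or 3 (0.0533 and 0.0504) and with the offset (0.153), and PARP9 had a log2 fold change of 0.05 with the offset (adjusted p = 0.857). In animal against 2D, 2 were higher and 0 lower (7 and 2 without the 2 libraries). PARP8 was at 19.5, 21.1 and 17.7 CPM in animal libraries 1 to 3, against 1.92, 1.95 and 1.71 CPM in 2D libraries 1 to 3, 10.4-fold higher (adjusted p = 0.00293). Its animal libraries were all above every other library. Set against 3D, the animal libraries had 5 higher and 1 lower, with PARP8 at 19.4 ± 1.72 CPM in animal libraries against 2.19 ± 1.44 CPM in 3D (adjusted p = 0.00184; log2 fold change 3.15, 2.38 without 3D replicates 1 and 2, 3.81 without 3D replicate 3 and 1.62 with the offset). PARP9 was at 31.0 ± 1.08 against 10.7 ± 2.00 CPM (adjusted p = 0.00122; log2 fold change 1.57, and 0.74 with the offset), and PARP10 at 40.3 ± 6.19 against 121 ± 35.5 CPM (adjusted p = 0.00176, and 0.193 with the offset). The NAD glycohydrolases CD38, BST1 and SARM1 were too low to be tested in any of the 4 comparisons with all libraries, with CD38 at 0.272 to 0.961 CPM in animal libraries and at most 0.0528 CPM in 2D. Without 3D replicates 1 and 2, CD38 passed the read filter through its animal reads alone, with a log2 fold change of 4.48 in animal against 2D. It had 7, 4 and 16 reads in animal libraries 1 to 3, against 0, 1 and 0 reads in 2D libraries 1 to 3.

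NNMT draws its methyl group from S-adenosylmethionine, so genes of the methionine cycle and of other small-molecule methyltransferases were listed beside it. In 3D against 2D, 3 were higher and 5 lower of 17 tested (3 and 5 of 18 without 3D replicates 1 and 2). MTRR, methionine synthase reductase, fell to 12.97 ± 4.64 CPM in 3D against 33.1 ± 0.978 CPM in 2D (adjusted p = 0.00719; log2 fold change -1.38, and -0.66 with the offset), and AHCYL1 to 96.9 ± 3.56 against 156 ± 4.15 CPM (adjusted p = 0.00939). The AHCYL1 call ended without 2D replicate 1 (0.0521). In animal against 2D, 3 were higher and 1 lower (6 and 2 of 18 without the 2 libraries). GAMT, which spends the same methyl donor on creatine, was at 0.721, 1.22 and 0.540 CPM in animal libraries 1 to 3, against 23.4, 20.4 and 22.4 CPM in 2D libraries 1 to 3, a 26.6-fold fall (adjusted p = 0.00271). In every other library GAMT was above the animal range. AOX1, which oxidises the product of NNMT, was at 7.80 ± 1.62 CPM in animal libraries against 2.66 ± 0.225 CPM in 2D (adjusted p = 0.0281), and BHMT2, a homocysteine methyltransferase, at 80.9 ± 14.6 against 43.2 ± 1.496 CPM (adjusted p = 0.0162). The AOX1 call ended on leaving out any 1 library of either group (0.0584 to 0.133), and that of BHMT2 without any 2D library or animal replicate 2 or 3 (0.0549 to 0.0917).

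In animal against 3D, 9 of the 17 methionine cycle and methyltransferase genes were higher and 3 lower. AOX1 was at 7.80 ± 1.62 CPM in animal libraries against 0.984 ± 0.538 CPM in 3D (adjusted p = 0.00128; log2 fold change 2.99, and 2.27 without 3D replicates 1 and 2), and BHMT2 at 80.9 ± 14.6 against 31.8 ± 1.74 CPM (adjusted p = 0.00132). GAMT was at 0.829 ± 0.354 CPM in animal libraries against 51.0 ± 37.7 CPM in 3D (adjusted p = 0.000736; log2 fold change -5.89, -5.23 without 3D replicate 2, -4.11 without 3D replicates 1 and 2 and -4.65 with the offset). With heat, 0 of 16 were called, and 0 higher and 5 lower without heat replicate 1, where 28.8% of all genes were called. The fibroblast and liver marker levels given above for the animal libraries stand beside these genes too, and their part in these results was not tested.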

How the data were processed

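The deposited table holds raw counts of reads per gene symbol for every library. Per the submitters' processing notes, HISAT2 and hg19 were used. The counting program, annotation, strand setting and treatment of host reads are not given in the sources used here. Per the labels' protocols, mRNA was primed with random hexamers and read as single ends of 50 bases, with no step that marks strand or molecules; intervals and floors therefore cover counting error alone. Of the 19143 rows, 27 carried a date in place of a symbol (0.168% of counts) and were not named.

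Tests used edgeR 4.0.16 in R 4.3.3: filterByExpr by group, TMM, robust quasi-likelihood fit with group as the sole term, and Benjamini-Hochberg adjustment over all tested genes. The 9 libraries of the first round and the 6 of the second had separate fits. SE is the absolute log2 fold change over the root of the F statistic. CPM levels use TMM factors over all 15 libraries. Lengths, GC content and overlaps came from GENCODE (longest protein-coding transcript; 99.1% of genes tested in the first round matched), whose build differs from hg19. The start region came from RefSeq; NNMT, NMRK1 and NAPRT starts were not used here. Alternatives were DESeq2 1.42.0, other scalings and filters, a replicate block, fits of 2 groups, no robust step, an offset for composition (length and GC content, each as a spline of 5 degrees of freedom), and leaving out libraries. The method was tested on simulated counts.

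The members and lists were chosen with earlier results of these data known. Named were all members; per list and comparison up to 2 called genes in each direction with the smallest adjusted p and at least 5 CPM in 1 group; the 3 most alike genes of the 3 most variable members of at least 10 CPM; and 6 defining markers. Some genes that this rule picks are not reported here. The alternatives for pathway genes, and list counts without 3D replicates 1 and 2 or heat replicate 1, were added after seeing the data. Genes named for being at or near 0 reads, and the 2 alike genes given by level, were picked after their values were seen.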

Additional observations from a re-analysis of the deposited data

How the results depend on the processing

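Of the enzymes' values under the alternatives, 377 kept their side of the threshold, 24 lost a call and 14 gained one. A further 3 reversed with a call in at least 1 of the 2 fits. The 377 include changes of sign where neither fit called the gene. NADK with heat, for example, kept its direction in 8 of 14 alternatives. Reversed were NADK in 3D against 2D, with the GC and length offset (-0.43) and without 3D replicates 1 and 2 (-0.65), and NAPRT in animal against 3D with the offset (0.062). Of the other NAD genes, with the offset NNT (0.44), PARP9 (0.052) and KYNU (1.25) reversed in 3D against 2D, and NNT (-0.59) and KYNU (-1.28) in animal against 3D; the cause was not tested. Enzymes called in 3D against 2D numbered 4 without 3D replicates 1 and 2, and 1 to 2 on leaving out single libraries, against 2. In animal against 2D they numbered 5 with the offset, with the 2 groups fitted alone and without 3D replicates 1 and 2, against 3. In animal against 3D they numbered 2 with the 2 groups fitted alone and 2 to 5 on leaving out single libraries, against 4.

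Among all genes, 2493 were called in 3D against 2D with the 2 groups fitted alone and 1795 to 9493 on leaving out single libraries, against 4247. In animal against 2D, 2505 were called by DESeq2, 3656 with the offset (1998 higher), 7289 with the 2 groups fitted alone, 7561 without 3D replicates 1 and 2 and 652 to 1154 on leaving out single libraries, against 1555 (1006 higher). In animal against 3D, 2746 were called with the 2 groups fitted alone and 3361 to 10132 on leaving out single libraries, against 5367. With heat, 1569 were called by DESeq2 (919 higher), 1 with median-ratio scaling, 1492 with the offset (762 higher) and 0 to 3691 on leaving out single libraries, against 3 (1 higher). Scaling moved the median of all genes by -0.10 (median-ratio) and 0.11 (upper-quartile) in animal against 3D and by -0.12 (upper-quartile) with heat, on the log2 scale.

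Replicate numbers did not pair libraries: same-numbered libraries had correlations of -0.283 to 0.218. With the replicate block 1031 genes were called in animal against 2D and 30 with heat. NMNAT2 in animal against 2D then had an adjusted p of 0.0655, and NMRK1 in animal against 3D 0.0856. PARP1 in 3D against 2D had 0.0522 and BHMT2 in animal against 2D 0.0554; the block ended no other call of a named gene. NMNAT3, and NNMT in heated libraries, were too shallow to test.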
